A study of Drosophila melanogaster with 2 samples.

Results

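The gene luna (FBgn0040765) lies on the minus strand of chromosome arm 2R, from 10977956 to 11116378 in the genome build dm6, and it is the gene that carries the tag in these flies. The region described here is the 138 kb gene span plus 5 kb on each side, 148 kb in all, and its members are the called intervals that overlap it. It held 1 of the 1696 peaks kept by the irreproducible discovery rate (IDR), which selects peaks by the agreement of their ranks in replicates. It held 27 of the 21725 candidates called on both replicates pooled, 36 of the 30000 candidates of replicate 1 and 37 of the 30000 candidates of replicate 2. By its deposited label, the pooled list holds peaks and background together as input for IDR, so a candidate is not by itself a site of binding. The IDR list consisted of the 1696 strongest pooled candidates, so that being in it and being strong are the same property here.

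Chromatin came from whole Drosophila melanogaster embryos of the strain luna-MiMIC-GFP, both sexes mixed, aged 0 to 24 h. In these flies an additional exon coding for eGFP sits inside an intron of luna, so that the endogenous locus makes a luna-GFP fusion protein under its own control elements. Chromatin sonicated to 200 to 800 bp was immunoprecipitated with an antibody against GFP and sequenced, in 2 biological replicates of 1 group. There is no untagged, untreated or mutant group, and the depth of each library is unknown. Per the deposited README texts a control file entered the calling of the candidates, but no control data were analysed here. The position of the GFP exon within luna is not given in the sources used here, so no distance to it was computed. Whole embryos pool all cell types and 24 h of development, so that weak binding in many cells and strong binding in few cells cannot be told apart.

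The protein encoded by luna is a zinc finger transcription factor of the Krüppel-like factor (KLF) family, related to human KLF6 and KLF7. Factors of this family bind GC-rich and CACCC-type elements through zinc fingers at their C-terminus. In the fly embryo, luna is known for a role in the separation of sister chromatids during the rapid early mitoses. Many transcription factors bind at their own genes, and the position of such binding relative to the transcription start sites (TSSs), introns and exons is what the lists can show for luna.

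The annotation gives luna 3 transcripts from 2 TSSs, a distal one at 11116378 and a proximal one at 11106816, 9562 bp further into the gene. Behind the proximal first exon come an intron of 5.79 kb, exon 2, a single intron of 108 kb called intron 2 here, and exons 3 to 5, which end the gene. Positions are given below as the distance downstream of the distal TSS in the direction of transcription. Each interval has a signal score set by the authors, on no stated scale, and ranks count from the strongest score of a list. Intervals at 1 locus are not replicates of a condition, so values at luna are described beside the same values over each whole list, without a test.

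The peak that passed the IDR threshold lay in intron 2, at 11062882 to 11063257 on 2R, with its summit 53.3 kb downstream of the distal TSS and 43746 bp downstream of the proximal TSS. No TSS of any annotated gene was nearer than 22516 bp, and that nearest one belonged to CG43188, a gene nested in intron 2. Its score was 53.7 in the pooled list, where it ranked 1243 of 21725, in the strongest 5.72%. It was also the strongest interval at luna in each replicate, with a score of 19.1 and rank 2265 in replicate 1 and a score of 37.7 and rank 764 in replicate 2. The summits of both replicates lay 68 bp and 19 bp from the pooled summit. Replicate 1 listed a further candidate 135 bp from that summit, at rank 8683 with a score of 11.8. By rank among all candidates of its own library, the peak was therefore stronger in replicate 2, and it was among the strongest 1696 candidates in replicate 2 and not in replicate 1. A share of 5.65% of a replicate list is, by construction, among its strongest 1696.

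Within the IDR list the luna peak was a weak member. Scores there ran from 46.4 to 689 with a median of 64.7, and 26.7% of the peaks were weaker than that at luna. The strongest peak scored 12.8 times as high. The luna peak stood 453 ranks above the weakest peak of the IDR list, and the next candidate at luna, with a score of 32.5 and rank 3600, was well outside it. The ratio of these highest scores at luna was 1.65. Among all 182 IDR peaks that lay in introns over 2 kb from any TSS, the median score was 59.2 and 122 were stronger than the luna peak. Only 6 of them, that of luna included, were at least 22516 bp from any TSS, with a median of 55.2, and 4 of these scored higher. The q value deposited for the luna peak was 3.57 on the −log10 scale, against 1.19 for the next candidate.

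Of the pooled candidates at luna, 1 of 27 or 3.70% (Wilson 95% interval 0.657 to 18.3) was in the IDR list, against 7.81% of all pooled candidates. Taking only candidates in introns over 2 kb from any TSS, 1 of 23 at luna or 4.35% (0.772 to 21.0) was in the IDR list, against 3.55% of all such candidates. Both backgrounds lie within the intervals, which cover counting error only. An IDR peak somewhere in the span plus 5 kb was found for 28.9% of all protein-coding genes and for 38.8% of those of 50 kb or more. An IDR summit lay in 10.5% of all introns of 50 kb or more, of which intron 2 of luna is 1 of 95.

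**Figure D1:**
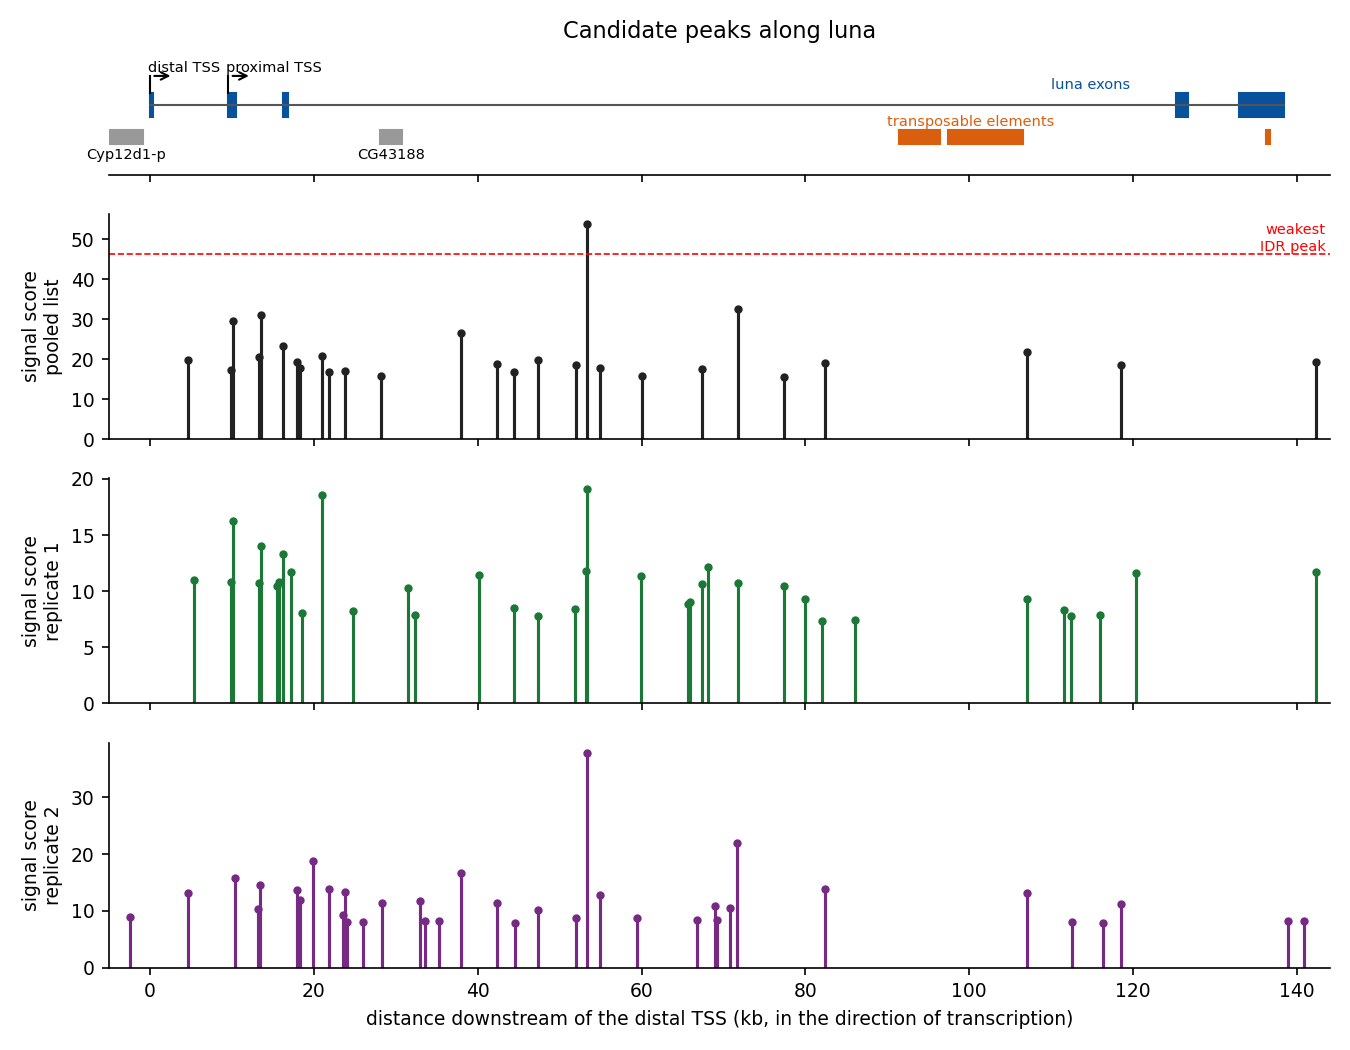
Called intervals along luna, drawn in the direction of transcription, with the distance from the distal TSS in kb on the horizontal axis. The top panel shows exons, nested and neighbouring genes and transposable elements, and each vertical line below is 1 candidate with its signal score in the pooled list, replicate 1 or replicate 2. A single pooled candidate, 53.3 kb downstream, exceeds the weakest IDR peak (dashed line, 46.4), and it is the highest in both replicates too.

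The other pooled candidates at luna were of ordinary or low score, and most had little support by q value. On the −log10 scale it was at most 0.610 from the 5th strongest candidate on, and 0.133 for the candidate of median score. All 27 were 376 bp wide, and 3 pairs of them overlapped, which left 24 separate groups. Their scores ran from 15.6 to 53.7 with a median of 19.1, below the median of 20.4 of the whole pooled list. The number above that list median was 9, with 4 in the strongest 25% and 1 in the strongest 10% of the list. In replicate 1 the median at luna was above that of the whole list, at 10.6 against 9.79, and scores at luna ran from 7.33 to 19.1. In replicate 2 it was almost equal and slightly below, at 10.801 against 10.837, and scores ran from 7.91 to 37.7.

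Candidates were about as dense at luna as elsewhere. The pooled list had 1.82 candidates per 10 kb in the region, 1.62 over the genome and 1.61 over arm 2R. The replicate lists had 2.43 (replicate 1) and 2.49 (replicate 2) per 10 kb at luna against 2.24 over the genome in each. Both replicate lists are exactly 30000 long, so these densities also depend on where the lists stop. IDR peaks were sparser at luna, at 0.0674 against 0.127 per 10 kb, a comparison that rests on 1 peak.

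No IDR peak lay within 1000 bp of a TSS of luna, and at that distance weaker candidates were found at the proximal TSS only. Within 1000 bp of the distal TSS there were 0 candidates in all 4 lists. The nearest pooled summit was 4608 bp downstream of it, at rank 11764, in the intron between both first exons. The nearest summit of replicate 1 was 5339 bp downstream at rank 10871, and that of replicate 2 was 2433 bp upstream at rank 22363 with a score of 9.00. The proximal TSS had no IDR peak within 1000 bp either, but it had 2 pooled candidates, both in the 910 bp first exon that starts there. The intervals of these 2 candidates overlap. One summit was 324 bp downstream of the proximal TSS, with a score of 17.4 at rank 16554, and the other was 547 bp downstream, at 11106081 to 11106456, with a score of 29.6 at rank 4373. The stronger of them was found in both replicates, at rank 3395 with a score of 16.3 in replicate 1 and at rank 6002 with a score of 15.8 in replicate 2, where the summit was 748 bp from the TSS. The weaker had a match in replicate 1 alone, at rank 11230. On the −log10 scale its q value was only 0.0687, against 0.898 for the stronger. Of all protein-coding genes, 45.9% had a pooled summit no further than 500 bp from a TSS, as did 63.8% of those of 50 kb or more, and luna was among them through the weaker of its candidates at the proximal TSS. With IDR summits this share was 10.7% of protein-coding genes, without luna.

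By annotation class, 23 of 27 pooled summits at luna or 85.2% (67.5 to 94.1) lay in introns, against 36.5% of all pooled summits. A summit within 500 bp of any TSS, called a promoter summit, made up 1 of 27 or 3.70% (0.657 to 18.3) against 33.8% of all. Exon summits were 2 of 27, and 1 of these was in an exon of CG43188 rather than of luna, so that 24 summits lay in introns of luna. The remaining summit was intergenic, in the downstream flank. In the replicate lists, intron summits were 33 of 36 in replicate 1, against 37.9% of that list, and 32 of 37 in replicate 2, against 37.2%. Introns make up 93.7% of the length of luna.

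Along the gene the candidates were unevenly spread, and most lay in the first 80 kb. In windows of 20 kb from the distal TSS, the pooled list had 8, 5, 6, 4, 1 and 2 summits, and 0 in the last window, which is 18.4 kb long. The same windows held 10, 4, 7, 7, 2, 4 and 1 summits in replicate 1 and 7, 10, 7, 5, 1, 4 and 0 in replicate 2. In all 3 lists the first 80 kb thus held most of the summits, with pooled densities of 4 to 2 per 10 kb there and at most 1 per 10 kb beyond. All 3 overlapping pairs of pooled candidates lay in the first window, so its 4 per 10 kb counts these places more than once.

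**Figure D2:**
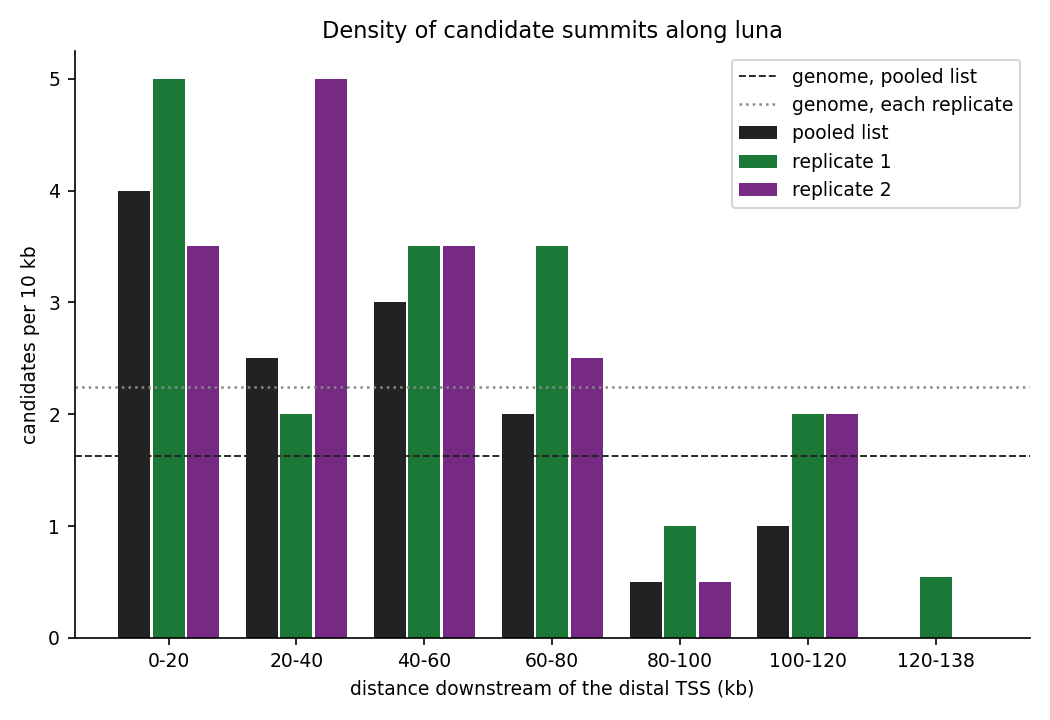
Candidate summits per 10 kb in 20 kb windows along luna, by distance from the distal TSS in kb, for the pooled list and both replicate lists, with horizontal lines for the genome-wide density of the pooled list (1.62) and of each replicate list (2.24). The pooled density is above its genome value in the 4 windows up to 80 kb and below it in the windows beyond. All 3 overlapping pairs of pooled candidates lie in the first window, and each member of a pair is counted.

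Among the separate segments, the proximal first exon held 2 pooled summits and the intron behind it held 3, which is 5.18 per 10 kb. The intervals of both exon summits overlap, and the summits of this intron also include an overlapping pair. Intron 2 held 20 pooled summits (1.84 per 10 kb), 27 of replicate 1 and 30 of replicate 2. The intron between both first exons held 1 summit in each of these lists. The distal first exon, exons 2 to 5 and introns 3 and 4 held 0 summits in all 4 lists. Exon 5 is the longest of these at 5.52 kb and intron 4 measures 6.15 kb.

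Long stretches of the gene were without a summit in any list. One ran from 86.1 to 107 kb downstream, 20955 bp long, and contained the transposable elements roo (9116 bp) and jockey (4985 bp) of the reference annotation. The other ran from 120 to 139 kb, 18654 bp long, and contained exons 3 to 5. With a further fragment in exon 5, transposable elements made up 9.78% of the region. No candidate of any list at luna overlapped one, against 1.29% of all pooled candidates that did. Without their length the pooled density was 2.02 per 10 kb. Whether reads of repeated sequence were kept is not given in the sources used here, so the part of repeats in this was not tested.

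After the IDR peak, the strongest pooled candidates fell into a few places. The next one lay deeper in intron 2, at 11044401 to 11044776, 71.8 kb downstream. Its score was 32.5 in the pooled list, 10.7 at rank 11621 in replicate 1 and 21.9 at rank 2787 in replicate 2. Another lay in the intron behind the proximal first exon, at 11102692 to 11103067, 13.5 kb downstream, and had nearly the same score in both replicates. It scored 31.1 at rank 3940 in the pooled list, 14.03 at rank 5158 in replicate 1 and 14.6 at rank 7301 in replicate 2. An overlapping candidate at 11102911 to 11103286 scored 20.6 at rank 10556. The fourth was the candidate 547 bp from the proximal TSS.

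Candidates found in 1 replicate alone came next in the order. The pooled candidate at 11078245 to 11078620, 37.9 kb downstream, scored 26.5 at rank 5658 and had a match in replicate 2 alone, at rank 5298. The one at 11099972 to 11100347, which overlaps exon 2 with its summit in the intron before it, scored 23.4 and had a match in replicate 1 alone, at rank 6071. The one at 11095263 to 11095638, 20.9 kb downstream, ranked 10363 in the pooled list and had a match in replicate 1 alone, where it was the second strongest interval at luna with a score of 18.6 at rank 2426. The one at 11111582 to 11111957 in the intron between both first exons scored 19.9 and had a match in replicate 2 alone, at rank 9430. Between these, the candidate at 11009139 to 11009514, 107 kb downstream, scored 21.7 and was found in both replicates, at rank 17364 in replicate 1 and rank 9505 in replicate 2.

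Some replicate candidates were strong and unmatched. The third strongest interval of replicate 2 at luna, at 19.8 kb, scored 18.8 at rank 3960 and had no summit within 250 bp in replicate 1 or in the pooled list. The interval at 21.0 kb that came second at luna in replicate 1 had no match in replicate 2.

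**Figure D3:**
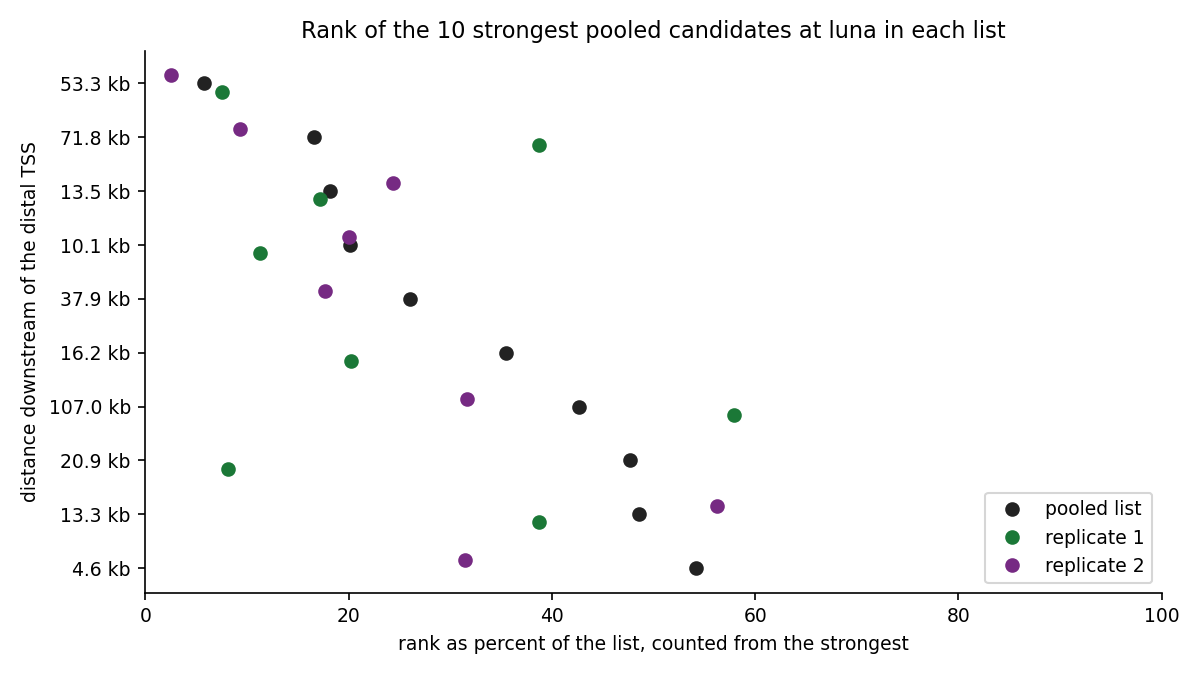
Rank of the 10 strongest pooled candidates at luna as a percent of each list, counted from the strongest, with 1 row per candidate named by its distance from the distal TSS. A missing point means that the replicate had no summit within 250 bp. The IDR peak at 53.3 kb is in the strongest 7.55% of all 3 lists, and 4 of the other rows lack a point of 1 replicate.

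Matched within 250 bp of the summit, 9 of 27 pooled candidates at luna or 33.3% (18.6 to 52.2) had a summit in both replicates, against 52.3% of all pooled candidates. Outside the IDR list it was 8 of 26 or 30.8% (16.5 to 49.99) against 48.3%. A summit in replicate 1 alone was found for 7 (25.9% against 20.02% of all) and in replicate 2 alone for 11 (40.7% against 25.5% of all). Those with a summit in neither were 0 of 27 (0 to 12.5%), against 2.22% of all, which lies within that interval. The share matched in both was lower at luna than over the list, with the list value just above the counting interval for all 27 and within it for the 26. Starting from the replicate lists, 11 of 36 candidates of replicate 1 or 30.6% (18.0 to 46.9) had a summit of replicate 2 within 250 bp, against 38.9% of that list. Of replicate 2, 10 of 37 or 27.03% (15.4 to 43.0) had a summit of replicate 1, against 39.8%. Both list values lie within the counting intervals at luna.

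The 9 candidates found in both replicates kept a similar order of scores in each. Spearman's rho between replicates was 0.867 and Pearson's r of log10 scores 0.797, against 0.493 and 0.682 over all 11363 such candidates. Without the IDR peak rho was 0.810 and r was 0.621 over 8 candidates. These points come from 1 locus and the same pair of libraries and are given as a description. Relative to the median ratio over all matched candidates, the log2 ratio of replicate 2 to replicate 1 ran from −0.27 to 0.86 with a median of −0.12 and an SD of 0.44, against an SD of 0.60 over all. The highest values, 0.86 and 0.81, belonged to the candidate at 71.8 kb and to the IDR peak, so both leading intervals of intron 2 were relatively stronger in replicate 2. The candidate near the proximal TSS, at −0.21, was relatively stronger in replicate 1.

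**Figure D4:**
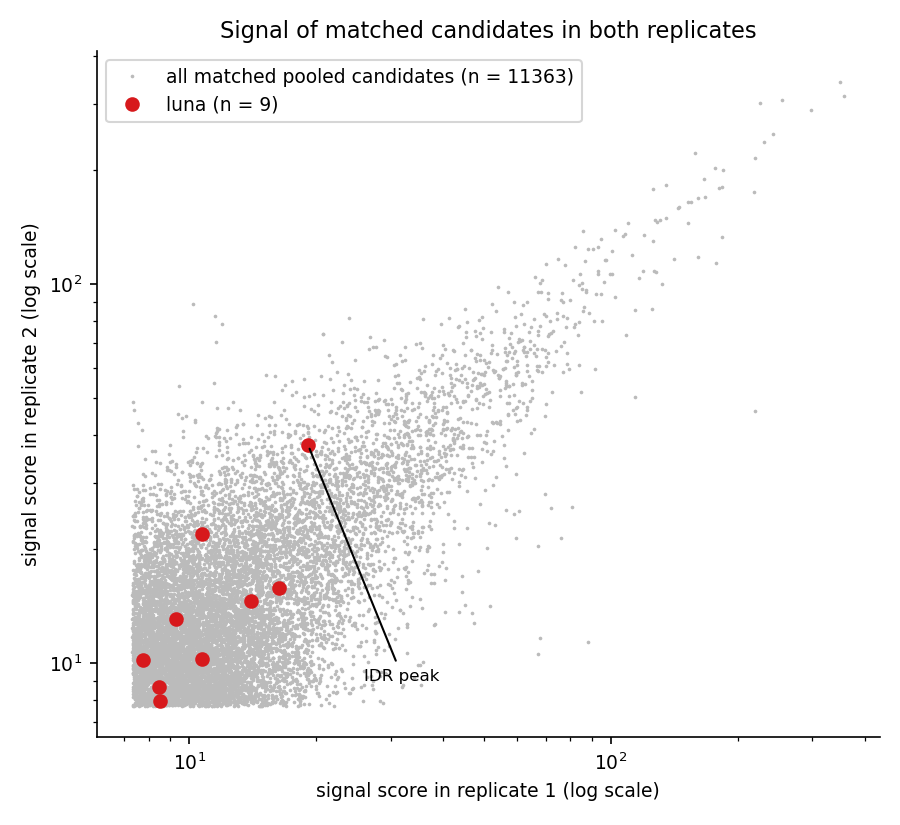
Signal score in replicate 1 against that in replicate 2, on log axes, for all 11363 pooled candidates with a summit of both replicates within 250 bp (grey) and the 9 of them at luna (red). The IDR peak of luna lies at 19.1 and 37.7, and the other red points reach at most 16.3 in replicate 1 and 21.9 in replicate 2.

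The region around luna has few other genes. CG43188, a protein-coding gene nested in intron 2 on the opposite strand, had 1 pooled summit within its span, 2647 bp from its TSS at rank 20560, and 0 within 500 bp of its TSS. The nested lncRNA:CR46409 had its nearest pooled summit 1939 bp from its TSS. Cyp12d1-p, a cytochrome P450 gene that ends 846 bp upstream of luna, had 0 pooled summits in its span and 1 in replicate 2, at rank 22363. The next genes outside the region were lncRNA:CR45228 on the 3′ side, with a gap of 30860 bp, and the pseudogene CR46420 on the 5′ side, with a gap of 6008 bp, and 0 summits of any list lay within either.

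Set beside other genes, luna had many candidates in number and an ordinary number per length. Its 27 pooled candidates exceeded the median of 11 among the 307 protein-coding genes of 50 kb or more, and 29 of these had more. Per 10 kb, 216 of them had fewer candidates than luna and 90 had more, with a median of 1.203, while among all 13945 protein-coding genes 43.0% had fewer. The strongest score at luna was above that of 209 long genes and below that of 97, with a median of 38.5. In number of IDR peaks, 45 of the long genes had more than luna. Intron 2, at 108 kb, was denser in pooled candidates than 82 of the 95 introns of 50 kb or more and less dense than 12, at 1.84 against a median of 0.392 per 10 kb with quartiles of 0 and 1.19. With a lower quartile of 0, many of these introns held no pooled candidate, and the density in intron 2 was near the genome value of 1.62. These introns belong to 65 genes, and 15 are longer than that of luna.

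The genes most like luna were taken as the long genes nearest to it in log2 density and log2 strongest score, out of 306. They were btsz, which encodes a synaptotagmin-like protein, CG42238, Ptp61F, a tyrosine phosphatase, fz, a receptor of Wnt and planar polarity signalling, and sif, a Rac exchange factor. Their strongest scores were 53.2, 49.996, 50.9, 58.3 and 59.9 in that order, and their densities 1.72, 1.86, 1.68, 1.92 and 1.87 candidates per 10 kb. The IDR list holds all pooled candidates that score at least 46.4, so the choice by score fixed that each of the 5 has an IDR peak.

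Within its own family, luna stood in the middle. The KLF and Sp list had 11 names that stand for 9 genes, because Bteb2 and CG9895 are synonyms of Klf15 and CG42741, and luna is the only member of 50 kb or more. IDR peaks in the span plus 5 kb were found for 4 of the 9, against 28.9% of all protein-coding genes, and pooled summits within 500 bp of a TSS for 6, against 45.9%. The highest score belonged to cbt, a factor of the TIEG type that acts in dorsal closure, with 560 at rank 4 of the pooled list, 4 IDR peaks and 5.29 candidates per 10 kb. That interval is shared with ush, a long gene on the opposite strand whose span contains cbt and whose strongest score is the same. Spps, a factor that binds Polycomb response elements, followed with 106 at rank 278 and 2 IDR peaks, and CG3065 with 74.9 at rank 603 and 2 IDR peaks. With 53.7, luna was 4th by strongest score in the span plus 5 kb and, with 1.82 per 10 kb, also 4th by density. Within 500 bp of a TSS, the best scores were 170 for cbt, 63.0 for CG3065 and 30.7 for Spps. They were 27.5 for CG42741, 17.4 for luna and 15.8 for Sp1. Distances from the strongest summit to the gene's own nearest TSS were 1402 bp for cbt, 3590 bp for Spps and 2442 bp for CG3065, against 43746 bp for luna. Those 3 genes span only 3.24, 3.49 and 1.93 kb. For Spps and CG3065 the distance exceeds the gene span, so their strongest summits lay in a flank, outside the gene. With 5 kb on each side, a distance as long as that at luna was not possible for cbt, Spps or CG3065. Their distances can therefore not be compared with that of luna.

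The other 5 members had no IDR peak. CG42741 had its strongest candidate 19 bp from its TSS, with a score of 27.5 at rank 5193. The gene dar1, which shapes dendrites, reached 24.98 at rank 6557. The head gap gene btd and its neighbour Sp1, known for appendage growth, reached 20.5 and 19.8. Klf15, a factor of nephrocyte differentiation, had a single candidate with a score of 16.1. The strongest summits of btd and Klf15 also lay outside the gene, 5058 and 1145 bp from the TSS of genes of 3.37 and 1.03 kb.

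**Figure D5:**
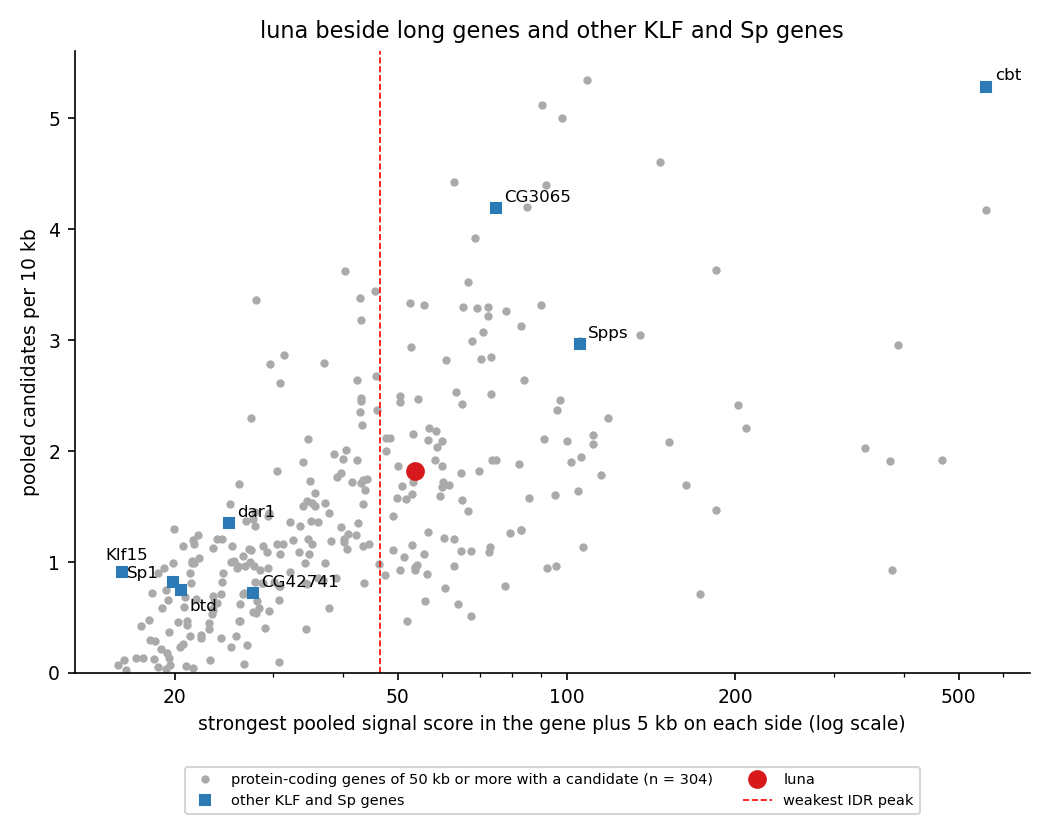
Strongest pooled signal score in the gene plus 5 kb on each side (log axis) against pooled candidates per 10 kb, for protein-coding genes of 50 kb or more that have a candidate (grey), luna (red circle) and the other KLF and Sp genes (blue squares), with the weakest IDR peak at 46.4 as a dashed line. luna lies just to the right of the line, among the grey points, with cbt, Spps and CG3065 further right and the other members of the family to the left.

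Sequence around the summits was searched for 9 short motifs on both strands, in windows of 201 bp. The KLF core, searched as CACACCC or CACGCCC, was present at 2 of 27 pooled summits at luna or 7.41% (2.06 to 23.4), against 4.95% of all pooled summits, 2.42% of IDR summits and 5.33% of intron summits over 2 kb from a TSS. Both were weak candidates, at ranks 17154 and 20857, 23.8 and 60.0 kb downstream. The Sp-type box GGGCGG was at 0 of 27, which allows a share of up to 12.5% by the Wilson interval, against 7.30% of all. The window of the IDR peak held none of the 9 motifs, as did 10 of the 27 windows at luna, against 40.5% of all pooled windows.

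A repeat of CA, CACACACA, was at 6 of 27 summits or 22.2% (10.6 to 40.8) against 5.45% of all pooled summits and 6.76% of intron summits over 2 kb from a TSS. In narrower windows, reaching 50 bp to either side, it was 11.1% (3.85 to 28.1) against 2.68% of all and 3.22% of such intron summits. The interval holds neither of these. In wider windows, reaching 250 bp to either side, the share was 25.9% (13.2 to 44.7) against 13.4% of all and 16.1% of such intron summits, and the interval then holds both. The 6 were not among the 4 strongest candidates at luna, but the 5th and the 8th, at pooled ranks 5658 and 10363, carried the repeat. GAGAG, part of the element bound by GAGA factor, was at 9 of 27 or 33.3% (18.6 to 52.2) against 23.9%, a gap not seen with 50 bp (11.1% against 12.5%) or 250 bp (48.1% against 48.1%) on each side. CGATA, part of the BEAF-32 element, was at 5 of 27 or 18.5% (8.18 to 36.7) against 25.3%. TAATTA, the core of many homeodomain sites, was at 3 of 27 or 11.1% against 11.4%. The Dref element TATCGATA, which contains CGATA, the M1BP element GGTCACACT and the Zelda element CAGGTAG were each at 0 of 27, against 2.33%, 1.197% and 1.04% of all. A match describes letters in a window and not a bound site. The GC content of the windows at luna was 41.4% ± 5.47 (SD, n = 27 windows), against 42.4% over all pooled windows and 38.1% over IDR windows, and that of the IDR peak was 38.3%.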

How the data were processed

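ChIP-seq peak lists in dm6 were the starting material: 1 candidate list per replicate, 1 of both replicates pooled and 1 IDR list. Per the deposited README texts, alignments and a control file gave the candidates, and the pooled and replicate lists together gave the IDR list. Which aligner, peak caller and IDR cut were used is not given in the sources used here. Each interval carries, as deposited by the authors, a signal score per interval and a q value on the −log10 scale, used to describe and rank intervals within a list. The deposited dm3 lists were not used.

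Intervals overlapping luna plus 5 kb by at least 1 bp were taken, in 1-based coordinates. Genes, TSSs and transposable elements came from Ensembl release 115 (BDGP6.54), synonyms from RefSeq, and GC content and motifs from the RefSeq copy of Release 6. Replicates were matched by the nearest summit within 250 bp. Computation used Python 3.11.15 with pandas 2.3.3, numpy 2.4.6 and scipy 1.17.1, and matching and overlaps were tested on simulated data. Wilson 95% intervals cover counting error only. Members, gene lists and motifs were chosen with earlier results of these data known. The named items are luna, the genes overlapping or nearest to the region, the KLF and Sp genes, the IDR peak, the 10 strongest pooled candidates, the strongest near each TSS, the 5 strongest of each replicate and the 5 long genes most like luna. Alternatives changed the flank, the list, the match distance, the distance to a TSS and the motif window.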

Additional observations from a re-analysis of the deposited data

How the results depend on the processing

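The number of pooled candidates in the region ran from 26 to 27 with other flanks, and was 36 and 37 with 1 replicate alone. The single IDR peak was lost (0) when the IDR list was limited to its strongest 848 peaks, and with 1 replicate's own strongest 1696 in its place the count ran from 0 to 1. These outcomes only restate its ranks, which were 1243 in the pooled list, 2265 in replicate 1 and 764 in replicate 2. The number of pooled summits within 500 bp of a luna TSS was 1, became 0 at 250 bp and 2 at 1000 bp, and ran from 0 to 1 with 1 replicate alone. The rank of the strongest candidate, 5.72% from the top, ran from 2.55% without replicate 1 to 7.55% without replicate 2. The share matched in both replicates was 33.3%, fell to 14.8% when only the strongest 10000 candidates of each replicate could match (21.5% of all pooled candidates), and ran from 29.6% to 44.4% with other match distances. The share of all pooled candidates at those distances is not given here, so luna cannot be set against the list there. The percent of long genes with fewer candidates per 10 kb was 70.4%, and ran from 62.5% to 66.8% with 1 replicate alone. The KLF core was at 0% of windows with 50 bp on each side, against 2.58% of all pooled windows, and at 14.8% with 250 bp, against 12.6%. No paired analysis was possible because there is 1 group. Read depth is unknown, so the lists do not tell how many reads lie behind a candidate.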
